A study of Rattus norvegicus with 2 samples.

Results

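The smooth muscle contractile genes described here are 10 genes taken by name from textbook knowledge of the contractile apparatus, namely Acta2, Actg2, Myh11, Myl9, Mylk, Tagln, Cnn1, Cald1, Smtn and Lmod1. All 10 were among the 32623 genes listed in the count matrix of rat carotid arteries. The matrix held 1 library of normal left carotid arteries (control group, no treatment) and 1 library of right carotid arteries after balloon injury (case group). Both came from the same 2 male Sprague-Dawley (SD) rats, 12 weeks of age in the labels and 8 weeks at injury in the methods of the study, and the vessels of both animals were pooled in each library. Tissue was taken 28 days after injury, digested with trypsin and collagenase and sequenced on the 10x Genomics platform, in which a UMI (unique molecular identifier) stands for 1 captured RNA molecule. The left artery was a control within the injured animal, not an artery of an uninjured rat, and the right external carotid had also been ligated. With 1 library per group there was no replicate, so no p-value is given, and the intervals below cover counting error only.

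Vascular smooth muscle cells (VSMCs) contract when calcium-bound calmodulin activates myosin light chain kinase, which phosphorylates the regulatory light chain and lets myosin pull on actin filaments. Contractile VSMCs of the media carry large amounts of smooth muscle actin, smooth muscle myosin and the proteins that bind and steady these filaments. Many of these genes are driven by serum response factor (SRF) with its partner myocardin at a DNA element called the CArG box, and VSMCs that take up a synthetic phenotype after injury are known to lower them.

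Since the promoters of these genes are a textbook example of CArG control, the promoter entries of RefSeq (GRCr8 build, 250 bases before to 50 after each start) were searched for this motif. It was written as CCNNNNNNGG, with at least 5 of the 6 middle bases A or T, a pattern that reads the same on both strands. Of 33469 promoter entries 9.42% held it, and 1.64% held it with all 6 middle bases A or T. An entry was found for 6 of the 10 genes, and Tagln, Myl9, Myh11 and Lmod1, which had none, were not searched. No entry of the genes searched held the motif with all 6 middle bases A or T. The entry of Acta2 was the only one that held it with at least 5. Its 2 copies, in capitals, start 134 and 84 bases before the start site in the 250 bases below, on the minus strand at chr1:241172504-241172753 of GRCr8. The sequence is shown because Acta2 is the gene that differed most between the libraries. A match is a description of the letters and not a measured binding site. Sequence farther than 250 bases before or 50 after a start was not searched. The lack of a match in this window is therefore not the lack of a CArG box in the gene.

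Acta2 promoter: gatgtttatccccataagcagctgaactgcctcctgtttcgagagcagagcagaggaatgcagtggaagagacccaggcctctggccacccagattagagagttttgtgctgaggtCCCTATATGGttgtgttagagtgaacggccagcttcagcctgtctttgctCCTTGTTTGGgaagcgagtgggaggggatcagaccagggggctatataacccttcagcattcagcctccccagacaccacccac

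There were 3321 control barcodes (median 5981 UMIs) and 5656 case barcodes (median 4778 UMIs), of which 2718 and 4913 were kept as cells. The kept cells formed 15 clusters, built with the 10 genes left out, so that their own counts were not used directly. Genes that follow them closely, such as Csrp1 and Tpm2 (below), were not left out. Differences of the 10 genes between clusters are therefore not independent of the clustering. Clusters were named from other markers, which left 4 clusters with 32.6% of control and 8.22% of case cells unnamed. A total of 979 control and 2478 case cells were VSMC-like, and all 12 VSMC markers used for this name were detected in both libraries. The summed level of these 12 markers was 5674 CPM (UMIs of a gene per 1000000 UMIs of all cells of a class) in the control and 4856 CPM in the case VSMC-like cells, against 282 and 378 CPM in fibroblast-like cells. The 8 fibroblast markers, all detected, summed to 3493 CPM in control and 3153 CPM in case VSMC-like cells, against 50740 and 41703 CPM in fibroblast-like cells. Of 8 listed endothelial markers 2 were at 0 in control VSMC-like cells, and their sum was 1.44 CPM there and 3.56 CPM in case cells. Their part in the results was not tested.

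In VSMC-like cells, the 10 genes together made up 29031 CPM in the control and 23195 CPM in the case library. The log2 ratio of case over control was -0.32 (95% interval -0.33 to -0.32). Acta2 was the only gene of the 10 to pass a 1.5-fold difference. It was lower in the case library, where 15.3% of the 4763 genes that averaged 20 CPM or more over both libraries were likewise at least 1.5-fold lower. None of the 10 was 1.5-fold higher, against 6.21% of all genes. The median log2 ratio of the 10 was -0.23, and that of all 4763 genes was -0.13. The interval lay below 0 for 7 genes, above 0 for Myh11 and Cnn1, and spanned 0 for Smtn. Of all genes tested, 65.0% had a ratio below that of Smtn, which was 0.02. Values below 0 were thus common among all genes. How many of all genes had an interval below 0 was not counted.

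**Figure D1:**
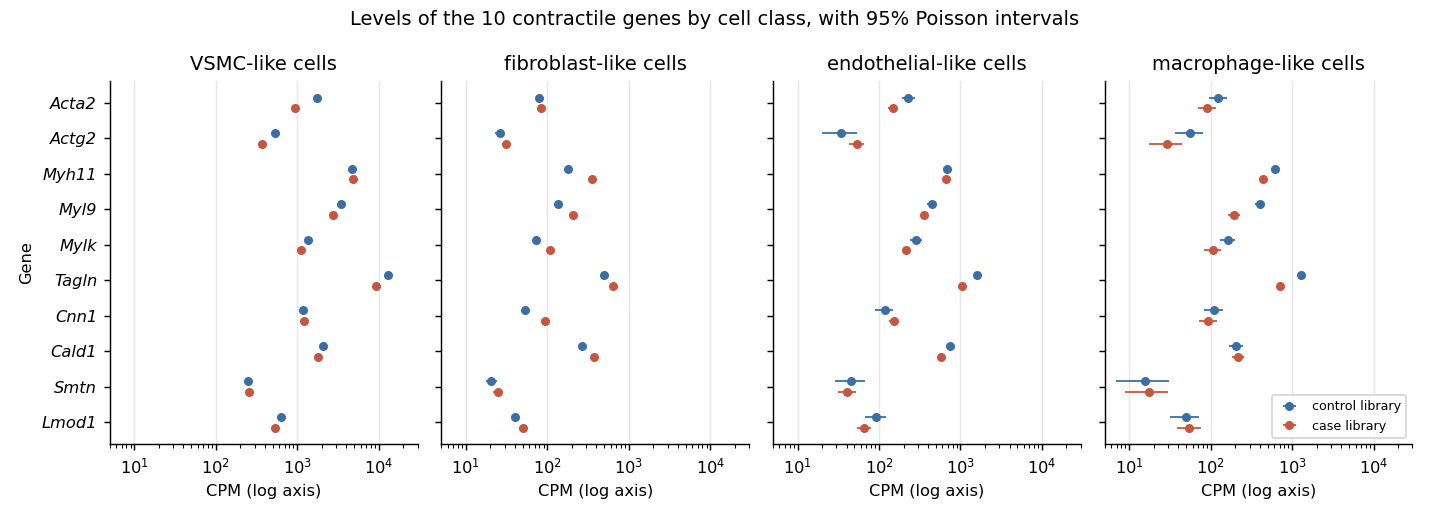
Level of each contractile gene (vertical axis) in CPM (horizontal log axis) in 4 cell classes, with the control library in blue, the case library in red and bars for exact 95% Poisson intervals. Every gene is highest in VSMC-like cells, and in these the largest fold between the libraries is that of Acta2, at 1770 against 944 CPM.

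The actins form the thin filament. Acta2 (ENSRNOG00000058039), the vascular smooth muscle alpha-actin, stood at 1770 CPM in control and 944 CPM in case VSMC-like cells. This was 1.88-fold lower in the case library, with a log2 ratio of -0.91 (-0.94 to -0.88), and only 4.05% of all genes tested lay below it. Actg2 (ENSRNOG00000029401), the gamma-actin typical of gut smooth muscle, stood at 528 and 374 CPM, a log2 ratio of -0.50 (-0.55 to -0.44). Both actins were thus lower in the case library. Their coding sequences are nearly identical with each other and with those of the other actins, so how reads were split among them is uncertain.

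The thick filament and its switch comprise the myosin heavy chain, the regulatory light chain and the kinase. Myh11 (ENSRNOG00000057880), the smooth muscle myosin heavy chain, stood at 4690 CPM in control and 4869 CPM in case cells, a log2 ratio of 0.05 (0.04 to 0.07). Myl9 (ENSRNOG00000020246), the regulatory light chain, stood at 3498 and 2717 CPM, a log2 ratio of -0.36 (-0.38 to -0.34). Mylk (ENSRNOG00000002215), the light chain kinase, stood at 1340 and 1127 CPM, a log2 ratio of -0.25 (-0.28 to -0.22). The heavy chain therefore did not share the lower level of its light chain and kinase in the case library.

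Among the proteins that bind the actin filament, Tagln (ENSRNOG00000017628), which encodes transgelin or SM22, had 13092 CPM in control and 9330 CPM in case cells. Its log2 ratio was -0.49 (-0.50 to -0.48). Cald1 (ENSRNOG00000010233), caldesmon, a brake on the actin and myosin interaction, stood at 2074 and 1817 CPM, a log2 ratio of -0.19 (-0.22 to -0.17). Lmod1 (ENSRNOG00000051548), leiomodin, which starts new actin filaments, stood at 625 and 538 CPM, a log2 ratio of -0.21 (-0.26 to -0.17). These 3 genes were lower in the case library. Cnn1 (ENSRNOG00000027736), calponin, stood at 1164 and 1225 CPM, a log2 ratio of 0.07 (0.04 to 0.11). Smtn (ENSRNOG00000019451), smoothelin, a marker of fully contractile smooth muscle, stood at 250 and 254 CPM, a log2 ratio of 0.02 (-0.05 to 0.09), which was within counting error.

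**Figure D2:**
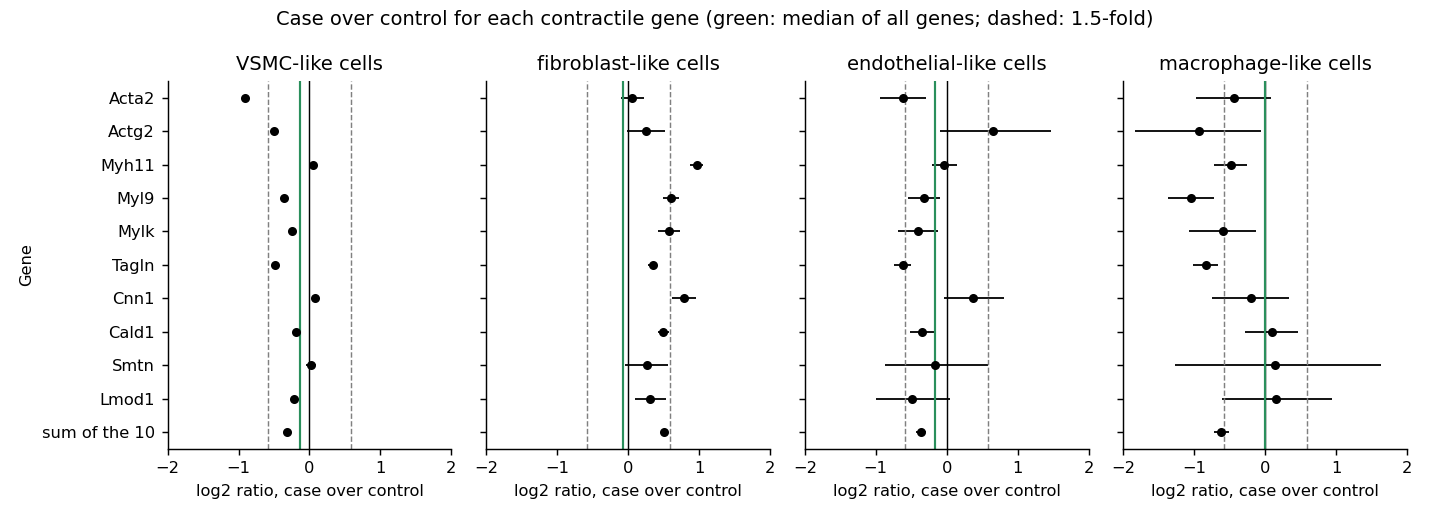
The log2 ratio of case over control (horizontal axis) for each contractile gene and their sum (vertical axis) in 4 cell classes, with bars for exact 95% intervals, a green line at the median of all genes and dashed lines at 1.5-fold. In VSMC-like cells Acta2 alone, at -0.91, lies beyond the lower dashed line, and Myh11, Cnn1 and Smtn lie near 0.

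Values near 0 depend on how the libraries are scaled. TMM factors added 0.13 to every log2 ratio in VSMC-like cells, which left Acta2 at -0.78. Shares among the UMIs of the 10 genes do not depend on such scaling. Acta2 made up 6.10% (exact interval 6.02 to 6.18%) of them in control VSMC-like cells and 4.07% (4.00 to 4.14%) in case cells. The share of Tagln was 45.1% and 40.2%, and that of Actg2 was 1.82% and 1.61%. In the opposite direction, Myh11 took 16.2% in the control and 21.0% in the case library, Cnn1 4.01% and 5.28%, and Smtn 0.862% and 1.10%. The shares of Cald1 (7.14% and 7.83%), Mylk (4.61% and 4.86%) and Lmod1 (2.15% and 2.32%) were higher too, although their CPM were lower. That of Myl9 was lower (12.0% and 11.7%). A higher share is therefore not by itself a higher level. The mix of contractile RNA thus held less Acta2 and Tagln and more Myh11 and Cnn1 in the case library.

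The balance of heavy chain to actin gave the same contrast in a single number. In control VSMC-like cells there were 2.65 Myh11 UMIs per Acta2 UMI (2.61 to 2.69), and in case cells 5.16 (5.06 to 5.25). These are ratios of UMIs, not of molecules per length. The ratio was higher in the case library in 8 of 9 clusters with at least 50 cells in each library, and in these 8 the intervals did not overlap. The exception was the macrophage-like cluster, at 4.97 (3.78 to 6.62) in the control and 4.83 (3.67 to 6.43) in the case library. In fibroblast-like cells the ratio was 2.29 in the control and 4.31 in the case library. The barcodes removed by the filter, whose RNA entered no other value, gave 3.29 (3.06 to 3.53) and 5.25 (4.80 to 5.75). The difference in balance was therefore found in the RNA of most clusters and not in the VSMC-like cells alone. These clusters and the removed barcodes come from the same 2 libraries and are not replicates. How much of the RNA outside VSMC-like cells was released from VSMCs was not tested, so a difference in other cell types is not shown.

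**Figure D3:**
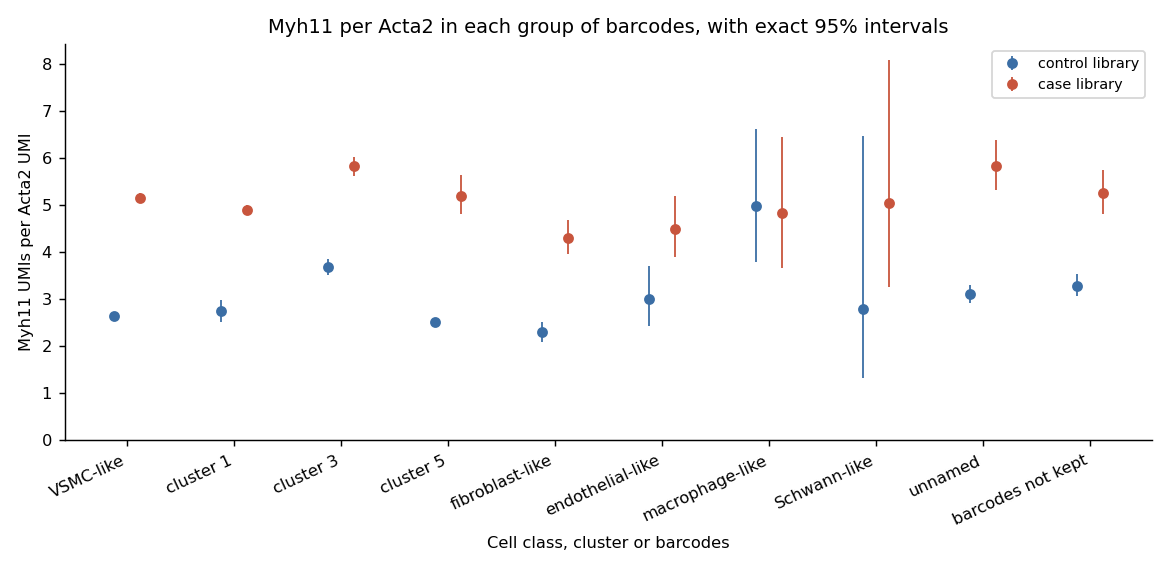
Number of Myh11 UMIs per Acta2 UMI (vertical axis, from 0) in cell classes, in the 3 VSMC-like clusters and in the barcodes not kept (horizontal axis), with exact 95% intervals. The case library, in red, lies at 4.31 or more throughout, above the control library except in macrophage-like cells, and the intervals of Schwann-like cells overlap.

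The VSMC-like cells of the libraries fell into different clusters, which has to be read beside every value above. Of the control VSMC-like cells 73.5% were in cluster 5, 17.9% in cluster 3 and 8.58% in cluster 1. Of the case cells 65.2% were in cluster 1, 32.4% in cluster 3 and 2.38% in cluster 5. Cluster 5 had Igfbp2, Rrad and Acta2 among its leading genes and a median of 12753 UMIs. Cluster 1 was led by genes that included Nexn, Cnn1 and Smtn (median 5134 UMIs), and cluster 3 by genes that included Foxc2 and Notch1 (median 6402 UMIs). Both libraries had cells in each of the 3 clusters, 84 control and 1616 case cells in cluster 1, 175 and 803 in cluster 3, and 720 and 59 in cluster 5.

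Among the VSMC-like clusters the summed 10 genes were highest in cluster 5 and lowest in cluster 3. The sum in the control library was 30481 CPM in cluster 5, 25708 CPM in cluster 1 and 23730 CPM in cluster 3. In the case library it was 30850, 24335 and 20433 CPM in the same order. Acta2 followed this order in both libraries, with 1946, 1714 and 1059 CPM in the control and 1377, 1047 and 722 CPM in the case library. Myh11 did so too, with 4886, 4693 and 3889 CPM in the control and 7157, 5115 and 4205 CPM in the case library.

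When the libraries were compared inside each cluster, the sum of the 10 genes differed less. Its log2 ratio was -0.08 (-0.11 to -0.05) in cluster 1, -0.22 (-0.23 to -0.20) in cluster 3 and 0.02 (-0.01 to 0.04) in cluster 5, against -0.32 for the pooled class. Acta2 was lower in the case library in each of them, at -0.71 (-0.82 to -0.60) in cluster 1, -0.55 (-0.62 to -0.48) in cluster 3 and -0.50 (-0.61 to -0.39) in cluster 5. Only the first of these passes 1.5-fold. Tagln was lower in each as well, at -0.20, -0.39 and -0.29.

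Myh11 and Cnn1 were higher in the case library inside every one of the 3 clusters. The log2 ratio of Myh11 was 0.12 (0.06 to 0.19), 0.11 (0.08 to 0.15) and 0.55 (0.50 to 0.60) in clusters 1, 3 and 5. That of Cnn1 was 0.37 (0.24 to 0.51), 0.30 (0.22 to 0.38) and 0.41 (0.31 to 0.51). These differences were larger than those of the pooled class. Depth was unequal inside the clusters. Median UMIs per cell were 14538 in control and 6004 in case cells of cluster 3, and 13044 and 8964 in cluster 5. In cluster 1 they were 4783 and 5157. Myh11 differed in direction between ranges of depth (below). No scaling factor or median of all genes was applied inside clusters. The Myh11 values of clusters 1 and 3 were no larger than the 0.13 that TMM factors added in the pooled class. Smtn had positive values of 0.20, 0.33 and 0.47, and in cluster 1 the interval spanned 0 (-0.07 to 0.48). Myl9, Mylk, Cald1, Lmod1 and Actg2 had values of either sign across the 3 clusters, so their lower pooled levels were not found in every cluster.

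**Figure D4:**
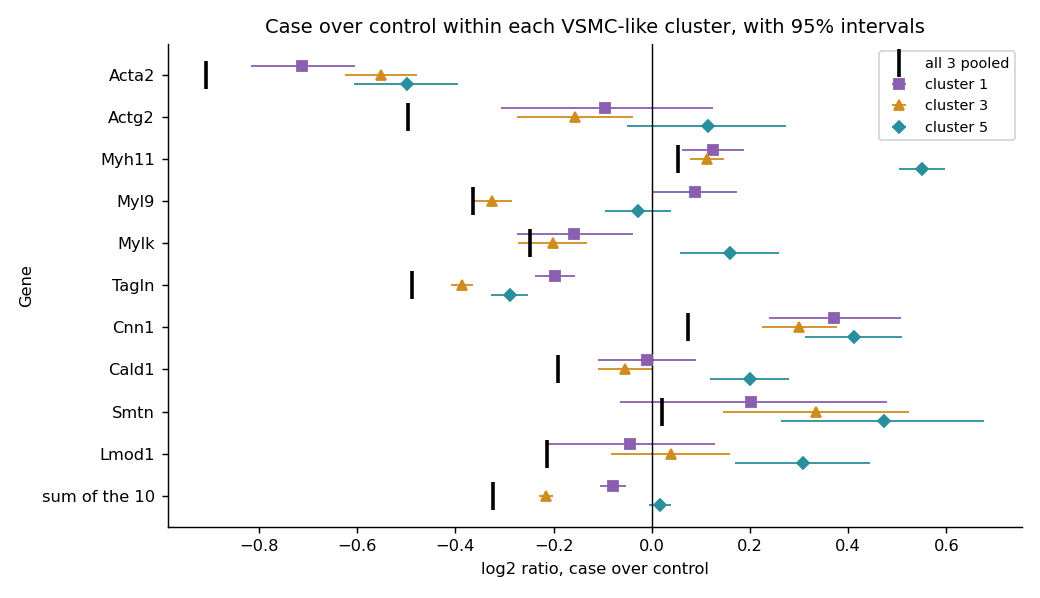
The log2 ratio of case over control (horizontal axis) for each contractile gene and their sum (vertical axis) inside clusters 1, 3 and 5, with bars for exact 95% intervals, and for the 3 clusters pooled (black ticks). Acta2 and Tagln lie below 0 in all 3 clusters, Myh11 and Cnn1 lie above 0, and the pooled values lie at or to the left of most cluster values.

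The libraries were also compared within ranges of UMIs per cell, inside which depth was not matched further. Among VSMC-like cells of 5000 to 10000 UMIs, 164 in the control and 1363 in the case library, Acta2 stood at 1885 and 977 CPM, a log2 ratio of -0.95 (-1.01 to -0.88). Among cells of 10000 to 20000 UMIs, 676 and 133, it stood at 1779 and 996 CPM, a log2 ratio of -0.84 (-0.91 to -0.76). The lower Acta2 was thus present in both ranges. Myh11 differed in direction between ranges. It was at -0.45 (-0.81 to -0.08) under 2000 UMIs (26 control and 41 case cells) and -0.18 (-0.28 to -0.07) at 2000 to 5000 UMIs (44 and 941). It was at 0.28 (0.24 to 0.32) in cells of 5000 to 10000 UMIs and 0.22 (0.18 to 0.25) in cells of 10000 to 20000 UMIs. The negative values thus rest on few control cells. Acta2 was at -0.55 (-1.39 to 0.34) under 2000 UMIs and -1.15 (-1.32 to -0.98) at 2000 to 5000 UMIs. A further 69 control cells, and 0 case cells, held 20000 UMIs or more.

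Per cell, each cell was thinned to 1000 UMIs, with shallower cells left out, to compare cells of unequal depth. Control VSMC-like cells then held a median of 28 UMIs of the 10 genes (quartiles 21 and 35, 964 cells), and case cells 22 (15 and 28, 2475 cells). At least 10 such UMIs were found in 97.7% of control and 93.0% of case VSMC-like cells. The whole distribution was thus lower in the case library, with a wide overlap, and cells are not replicates. In cluster 5 the median was 29 in both libraries. In fibroblast-like cells it was 1 in both, and at least 10 UMIs were found in 1.31% of 685 control and 3.13% of 1472 case cells.

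At this depth, Acta2 was detected in 77.5% (74.7 to 80.1%) of control and 58.1% (56.2 to 60.1%) of case VSMC-like cells, and in 8.93% and 5.51% of macrophage-like cells. Before thinning the shares in VSMC-like cells were 98.5% at a median of 12828 UMIs and 93.7% at 5496 UMIs, and in macrophage-like cells 55.0% at 8615 and 18.8% at 5034 UMIs. Actg2 was detected in 36.1% (33.1 to 39.2%) and 25.5% (23.7 to 27.2%) of thinned VSMC-like cells. Both actins were thus found in fewer case cells at equal depth. So were Myl9 (92.6% and 86.7%), Mylk (69.4% and 62.0%) and Cald1 (83.4% and 78.3%), with intervals that did not overlap. The intervals of Cnn1 and Lmod1 overlapped. Myh11 was detected in 95.5% and 94.9%, Tagln in 99.5% and 99.2%, and Smtn in 20.3% and 22.02%, all with overlapping intervals. Detection near 100% leaves no room to see a lower level, and the level of Tagln did differ.

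**Figure D5:**
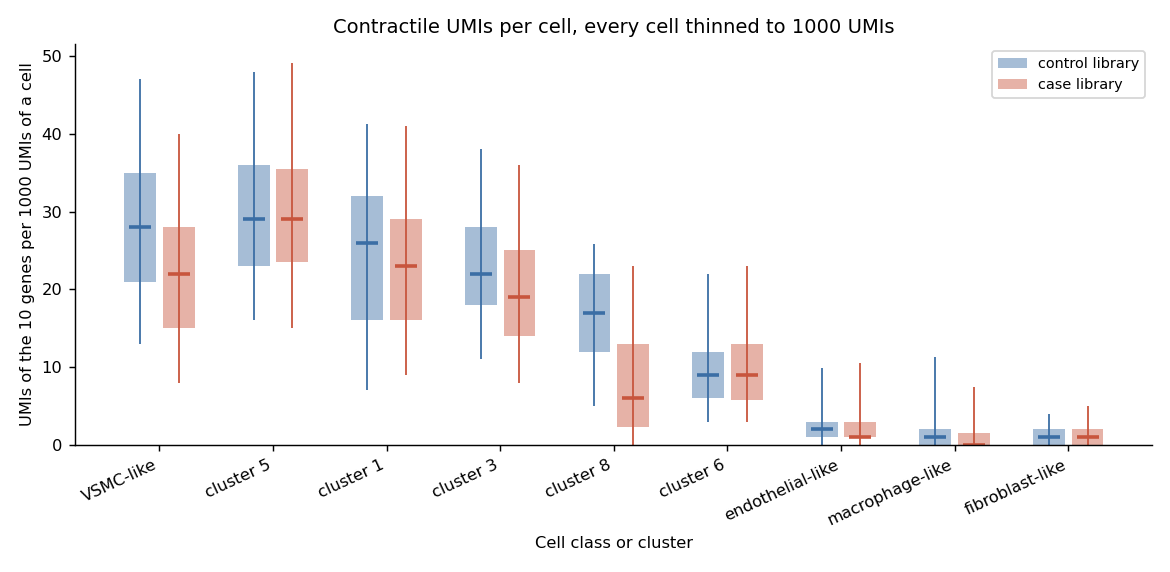
UMIs of the 10 genes per 1000 UMIs of a cell (vertical axis, from 0) for cell classes and clusters (horizontal axis), with boxes for quartiles, thick marks for medians and lines from the 5th to the 95th percentile over cells. VSMC-like cells have a median of 28 in the control and 22 in the case library, and fibroblast-like cells a median of 1 in both.

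Outside the VSMC-like cells the 10 genes were found at a lower level in every other named class, and Cald1 stood apart from the others in fibroblast-like and endothelial-like cells. Relative to VSMC-like cells of the same library, fibroblast-like cells held 3.81 to 8.19% of the level of the other 9 genes in the control library and 6.78 to 9.67% in the case library. For Cald1 the shares were 12.7% and 20.5%. In endothelial-like cells Cald1 reached 35.4% and 31.9%, while Mylk, the next, was at 21.2% and 19.0%. Macrophage-like cells held 6.30 to 13.2% of the level of the 10 genes in the control library, with Cald1 at 9.89%, and in the case library 6.83 to 10.2% of that of the other 9, with Cald1 at 12.0%. In the control library Cald1 and Smtn were the only genes with a higher share in fibroblast-like than in macrophage-like cells, at 8.19% against 6.30% for Smtn. The macrophage-like value of Smtn rested on 8 UMIs (2.72 to 12.4%), so its contrast was within counting error. How much of these levels was RNA released from other cells was not tested. A non-muscle form of caldesmon is known in many cell types, and counts per gene do not separate the forms.

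Acta2 in fibroblast-like cells, often read as a mark of myofibroblasts, had opposite differences in its main clusters and none beyond counting error when they were pooled. The class was filled by cluster 2 (546 control and 628 case cells) and cluster 4 (128 and 818), so that most control cells were in the first and most case cells in the second. In cluster 2 Acta2 stood at 85.3 CPM (78.2 to 92.9) in the control and 64.3 CPM (56.4 to 73.0) in the case library, and in cluster 4 at 54.9 CPM (43.4 to 68.4) and 98.3 CPM (89.4 to 107.8). Pooled, it stood at 79.2 CPM in the control and 82.6 CPM in the case library, a log2 ratio of 0.06 (-0.10 to 0.22). Acta2 was detected in 7.15% of control and 6.39% of case fibroblast-like cells at equal depth, with overlapping intervals. In cluster 4 Myh11 was higher as well, at 147 and 413 CPM. Thinned cells of cluster 4 held a median of 1 contractile UMI in both libraries. At least 10 were found in 0.813% of 123 control and 3.55% of 817 case cells there. How much of the Acta2 in cluster 4 was RNA of other cells was not tested. In the pooled class Myh11 stood at 182 and 356 CPM (0.97, 0.88 to 1.06), Cnn1 at 53.8 and 92.7 CPM (0.79, 0.61 to 0.96) and Myl9 at 136 and 206 CPM (0.61, 0.50 to 0.72). These 3 genes were at least 1.5-fold higher, where 6.49% of 4470 genes were, and none was 1.5-fold lower, against 14.0% of genes. In cells thinned to 1000 UMIs the mean UMIs of Myh11 were 0.172 in the control and 0.248 in the case library. Those of Cnn1 were 0.0511 and 0.0727, and those of Myl9 0.128 and 0.160. Each of these differences was under 1.5-fold, so the 1.5-fold calls of these genes were not kept at equal depth.

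The sum of the 10 genes in fibroblast-like cells was 1372 CPM in the control and 1957 CPM in the case library, a log2 ratio of 0.51 (0.48 to 0.55). The sum was 1433 and 1646 CPM in cluster 2, and 1082 and 2211 CPM in cluster 4, which held more of the case cells. The pooled ratio was 0.21 with each cell weighted equally and turned to -0.045 when cells were sorted one by one on marker UMIs. It was -0.11 once the highest doublet scores were removed at the expected rate (72 control and 222 case cells). These scores came from a doublet caller (Scrublet) whose own limit marked only 2 case cells. Cells were removed here by rank of score and not by that limit. How well the ranking worked in the case library was not tested. Sorting one by one kept only cells whose top marker score was at least 2 times the next. Cells with much RNA of both VSMCs and fibroblasts were thus left out. How many such cells either setting removed was not tested. The VSMC markers moved with the pooled sum, from 282 to 378 CPM, and their part in it was not tested. The higher level in fibroblast-like cells of the case library was therefore not stable.

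Endothelial-like cells lay in cluster 9 (54 control and 159 case cells) and cluster 11 (10 and 174). Their sum was lower in the case library, at 4282 and 3331 CPM (-0.36, -0.43 to -0.29), and at 4174 and 2886 CPM inside cluster 9. Acta2 (229 and 149 CPM) and Tagln (1616 and 1053 CPM) were at least 1.5-fold lower, where 28.3% of 5037 genes were, and Actg2, with 18 and 83 UMIs, was 1.5-fold higher with an interval that spanned 0 (16.8% of genes were higher). In macrophage-like cells, 60 and 128, the sum was 3014 and 1957 CPM (-0.62, -0.73 to -0.52). Tagln, Myl9, Mylk and Actg2 were 1.5-fold lower there, 4 of the 9 genes that passed the minimum level, against 15.7% of 4502 genes, and none was higher (16.9%). VSMC markers in these classes moved the same way, from 1116 to 791 CPM and from 450 to 390 CPM. In the 26 control and 78 case Schwann-like cells the sum rested on 204 and 652 UMIs, at 1675 and 2343 CPM (0.48, 0.26 to 0.72). The VSMC markers stood at 1831 and 877 CPM there. They include Sncg, which was among the leading genes of this Schwann-like cluster. Their sum is thus not a reading of VSMC RNA alone. Of 9 genes that passed there, 4 were higher (25.3% of genes were) and 1 was lower (29.4%). Among the higher genes the intervals of Smtn (3 and 15 UMIs) and Cnn1 (6 and 26 UMIs) spanned 0. The lower gene, Lmod1, had 11 and 5 UMIs.

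The other genes of the contractile pathway were read in VSMC-like cells from 4 lists. For myosin light chain phosphorylation 12 of 13 genes were measured, of which 3 were at least 1.5-fold lower and none was higher, against 15.3% and 6.21% of all genes. Their median log2 ratio was -0.40. Calm3, a calmodulin gene, stood at -1.21 (57.3 and 24.8 CPM), and Ppp1r12c, a regulatory subunit of myosin phosphatase, at -0.91 (191 and 102 CPM). At the other end Ppp1r12a, its main smooth muscle subunit, stood at 0.02, and Ppp1r14a, an inhibitor of the phosphatase, at -0.13. Calm2 was the other gene past 1.5-fold, at -0.63, so that 2 of the 3 encode calmodulin.

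Among other actins and myosin chains 7 of 9 genes were measured, all with values below 0, and 4 were at least 1.5-fold lower (15.3% of all genes were). Their median was -0.62, against -0.13 for all genes. Myl12a, a non-muscle regulatory light chain, stood at 1579 and 743 CPM (-1.09, -1.12 to -1.05). Acta1, the skeletal alpha-actin, stood at 51.8 and 24.98 CPM (-1.05), with the same doubt about shared reads as Acta2. The highest were Myh10, a non-muscle heavy chain, at -0.24 and Myl6, the essential light chain, at -0.30. The interval of Myh10 (-0.30 to -0.17) overlapped that of Myl6 (-0.32 to -0.28).

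Of the actin-binding and dense plaque genes 15 of 17 were measured, 2 were at least 1.5-fold lower, close to the 15.3% of all genes, and the median of -0.10 was near that of all genes. Des, the intermediate filament desmin, stood at -0.71 and Tpm2, beta-tropomyosin, at -0.66 (5306 and 3354 CPM). Flna, the actin crosslinker filamin A, stood at 0.18 and Tpm1, alpha-tropomyosin, at 0.17 (4447 and 4986 CPM), so the tropomyosins differed in opposite directions. Of 6 regulators 3 were measured and none passed 1.5-fold. Srf stood at 92.6 and 86.3 CPM (-0.10, -0.22 to 0.02), Myocd, its partner myocardin, at 88.5 and 85.4 CPM (-0.05, -0.17 to 0.07), and Klf4, a repressor of contractile genes, at 1628 and 1632 CPM (0.00, -0.02 to 0.03). The intervals of all 3 spanned 0. Ppp1r14a and Des were also among the 12 markers that defined the class.

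The genes whose pattern was most like the sum of the 10 were sought over 22 combinations of cluster and library with at least 50 cells, among 4959 genes. Pearson's r of log2(CPM + 1) was 0.985 for Csrp1, a filament-associated LIM protein, 0.985 for Tpm2, 0.981 for Nexn, an actin-binding protein, 0.979 for Ppp1r14a and 0.978 for Pln, the regulator of the calcium pump. These units share 2 libraries and differ in depth, and Ppp1r14a and Pln helped to define the class. Among the members r ranged from 0.944 for Smtn to 0.994 for Myl9, each being part of the sum it was compared with.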

How the data were processed

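Single-cell RNA of pooled rat carotid arteries was measured in 2 libraries, 1 per group. The authors deposited raw UMI counts for every gene in every barcode. They come from Cell Ranger 3.1.0, per the file headers, and the submitters' notes name Rnor_6.0 and Seurat. Whether the libraries were brought to equal depth when combined is not given in the sources used here. Barcodes carry a number and no group name, so libraries were assigned from the numbers of barcodes the study states for each group, and with another assignment every direction would turn. Totals were 24968329 UMIs in the control and 28232614 in the case library. A total of 21 barcode sequences occurred in both.

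Barcodes were kept with at most 20% mitochondrial UMIs, log10 UMIs and log10 genes within 2 SD of the library mean and gene numbers no more than 3 robust SD from a line fitted against UMIs. Counts were scaled to 10000 per cell, and 2000 variable genes without the 10 members, 30 principal components and 20 neighbours gave Leiden clusters (resolution 0.8, seed 1). Naming needed 3 markers of a cell type in at least 10% of the cells of a cluster. In addition, 2 markers (more than of any other type) had to be among its 10 leading genes, or the mean relative marker level had to reach 0.25 and exceed the runner-up 1.5 times. Clusters with a median under 0.333 of the library median UMIs stayed unnamed unless 2 of their markers led. These thresholds were set after seeing the data, and names rebuilt in this way may differ from those of the study.

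CPM were sums of UMIs over the cells of a class per 1000000 UMIs, compared where the mean was at least 20 CPM. Ratios have exact conditional 95% Poisson intervals and shares Clopper-Pearson intervals. The script was tested on simulated data. Members, gene lists and comparisons were chosen with earlier results of these data known. All 10 members are named, and in each pathway list the 2 highest and 2 lowest genes in VSMC-like cells. Calm2 and the 3 regulators measured were named after their values were seen. Doublets were left in, and Scrublet (scanpy 1.11.5) marked 42 control but only 2 case cells, so its limit for calling doublets had not worked in the case library. Where the highest scores were removed instead, cells were taken by rank of score without that limit. Python 3.11.15, numpy 2.4.6, scipy 1.17.1, leidenalg 0.10.2 and, for TMM factors, R 4.3.3 with edgeR 4.0.16 were used. Alternatives covered scaling, depth, cell filter, doublets, clustering and class definition, with 13 planned and 3 added after seeing the data for VSMC-like cells. All 17 for the fibroblast-like sum were chosen after seeing the data.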

Additional observations from a re-analysis of the deposited data

Results flagged for a closer look

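For 8 pairs of gene and cell class, the log2 ratio of case over control had the opposite sign to that in VSMC-like cells, with neither interval reaching 0. The minimum level was passed by 10 genes in fibroblast-like and in endothelial-like cells, and by 9 in macrophage-like and in Schwann-like cells. The share of all genes with such opposite signs was not counted. In fibroblast-like cells Tagln stood at 0.35, against -0.49 in VSMC-like cells. Myl9 stood at 0.61 against -0.36, and Cald1 at 0.50 against -0.19. Mylk stood at 0.57 against -0.25, and Lmod1 at 0.31 against -0.21. In macrophage-like cells Myh11 stood at -0.49, against 0.05. In Schwann-like cells Tagln stood at 0.44 and Cald1 at 0.77, on 80 and 28 control UMIs. The differences between classes were not tested, since each group had 1 library. Those of the fibroblast-like cells rest on a sum that turned its direction under 2 alternatives.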

How the results depend on the processing

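In VSMC-like cells the log2 ratio of the summed 10 genes (-0.32) was below 0 under all 16 alternatives. It moved beyond its counting interval to -0.20 with TMM factors, -0.20 in cells of 5000 to 10000 UMIs, -0.30 with cells sorted one by one, -0.31 without barcodes under 2000 UMIs, -0.34 with at most 10% mitochondrial UMIs, -0.35 after thinning, -0.36 with cells weighted equally, -0.36 with libraries clustered apart, -0.36 at resolution 0.4 and -0.36 without the highest doublet scores at the expected rate (72 control and 222 case cells). Exactly 1 gene was 1.5-fold lower under each of the 16, and Acta2 ranged from -0.96 to -0.78. Cnn1 turned to -0.034 after thinning, and Cald1 to 0.059 in cells of 5000 to 10000 UMIs. Smtn, within counting error, was below 0 in 4 of the 16.

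In fibroblast-like cells the sum (0.51) was 0.59 with TMM factors, 0.21 with cells weighted equally, 0.19 after thinning, 0.15 without barcodes under 2000 UMIs, 0.39 with at most 10% mitochondrial UMIs, 0.74 without the doublets Scrublet marked, 0.30 and 0.32 at resolutions 0.4 and 1.2, 0.41 with unnamed clusters assigned, 0.12 in cells of 5000 to 10000 UMIs and 0.24 without cells of 10 or more contractile UMIs per 1000, a choice made on the measured genes themselves. The value of 0.74 rests on the Scrublet limit that had not worked in the case library. That limit marked 12 of 695 control but 1 of 1473 case fibroblast-like cells. The sum reversed to -0.045 with cells sorted one by one, which leaves out cells with much RNA of 2 types. It also reversed to -0.11 without the highest doublet scores, taken by rank, and how well that ranking worked in the case library was not tested. The cause was not tested. The share of all genes at least 1.5-fold lower in VSMC-like cells was 15.3%, 17.4% at a minimum of 100 CPM and 20.2% with 1 UMI in each library as the only filter.

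No paired analysis was possible because each group had 1 library. For the same reason no library was left out, and side of the body, library, digestion and injury cannot be told apart. The depth of VSMC-like cells (median 12828 and 5496 UMIs) limits detection of Smtn and Actg2 per cell.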

Other observations

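The 4 unnamed clusters also carried the 10 genes. Cluster 8, led by Pcsk1 and Vcam1, had markers of both VSMCs and fibroblasts, with 93 control and 162 case cells. Pcsk1 stood there at 25.2 CPM in the control and 287 CPM in the case library, and the fibroblast marker Pi16 at 844 and 111 CPM, and their part in the values below was not tested. Its thinned cells held a median of 17 contractile UMIs per 1000 in the control and 6 in the case library, and at least 10 were found in 83.3% and 35.2% of them. Acta2 stood there at 1022 and 411 CPM, Myh11 at 2785 and 2061 CPM, and Cald1 at 1281 and 1221 CPM, so that Cald1 differed least of these 3. Cluster 7, with a median of 491 UMIs per cell, was led by haemoglobin genes and Des and held 328 control but 11 case cells. Its mean relative marker level was highest for VSMCs, at 0.48 against 0.054 for fibroblasts. It stayed unnamed because of its low UMIs. The 10 genes made up 25284 CPM of its control cells. Cluster 6, with a median of 1476 UMIs, held 330 control and 199 case cells, with 10720 and 10413 CPM of the 10 genes. It too was nearest to VSMCs by markers (0.54 against 0.059 for fibroblasts) and unnamed for its low UMIs. The VSMC-like class thus leaves out low-UMI cells with VSMC markers, more of them in the control library. Cluster 12, with fibroblast markers and a median of 969 UMIs, held 135 and 32 cells, with 7513 and 2312 CPM.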
